A study of Mus musculus with 16 samples.

Results

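The signals of 10 genes of the circadian clock were compared in the atria of mice during the first week after a heart attack. The genes were Arntl, Clock, Npas2, Per2, Per3, Cry1, Cry2, Nr1d1, Nr1d2 and Dbp. They were taken by symbol from the rows of the deposited table that name a single gene, and each of the 10 had at least 1 such row, out of 30062 genes measured in this way. All 10 were among the 18389 genes tested, which lay above the median of all rows on at least 4 of the 16 arrays.

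Atrial RNA of male C57BL/6 mice, 10 weeks old at surgery and kept in a cycle of 12 hours of light, was hybridised to 16 single-colour arrays. There were 4 arrays each from wild-type mice 1, 3 and 7 days after myocardial infarction made by ligation of a coronary artery, the left anterior descending, and 4 from sham-operated mice of the same strain, age and sex. Arrays are named by group and number, which gives 11 to 14 on day 1, 31 to 34 on day 3, 71 to 74 on day 7 and 1 to 4 for sham. The sources used here give neither the hour of tissue collection nor the day on which sham tissue was taken. Because clock genes change through the day in healthy tissue, an effect of the hour of collection and an effect of infarction cannot be told apart in any comparison with sham or between days.

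The mammalian clock is a feedback loop of transcription and translation that most cells run for themselves. BMAL1, the product of Arntl, pairs with CLOCK or NPAS2 and switches on genes through E-boxes. Among these are the Per and Cry genes, whose proteins return to block the pair, and Nr1d1 and Nr1d2, which encode the nuclear receptors REV-ERB alpha and beta that repress Arntl. Dbp, also driven through E-boxes, encodes a transcription factor that acts on D-boxes in genes further down. In the heart this clock times metabolism, ion channels and contraction.

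The values are the authors' deposited log2 signals. Their background correction and scaling are not given here, so results are log2 differences of signal between groups and not folds. Levels of different genes are not compared. A gene was called in a comparison when its limma p-value, adjusted by Benjamini-Hochberg over all 18389 genes, was under 0.05.

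Most of the 10 genes were lower in infarcted mice on days 1 and 3, Arntl was higher, and the gap to sham was smaller on day 7. On day 1, 6 genes fell (Per2, Per3, Cry2, Nr1d1, Nr1d2 and Dbp) and 2 rose (Arntl and Cry1), where 47.2% of all genes tested were called, 22.2% lower and 24.9% higher. In 6 of the 10 the groups did not overlap, as for 55.1% of all genes. On day 3 the same 6 genes fell and Arntl alone rose, against 43.8% of all genes called, 20.2% lower and 23.5% higher, and the groups did not overlap in 7, as for 42.9% of all genes. On day 7, 3 genes remained lower (Per2, Cry2 and Dbp) and none was called higher, against 24.9% of all genes called, 9.94% lower and 14.9% higher, and the groups did not overlap in 2, as for 38.3% of all genes. Clock and Npas2 were not called in any comparison. The median log2 difference over the 10 genes was -0.50 on day 1, -0.68 on day 3 and -0.30 on day 7, beside 0.06, 0.08 and -0.01 over all genes tested.

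**Figure D1:**
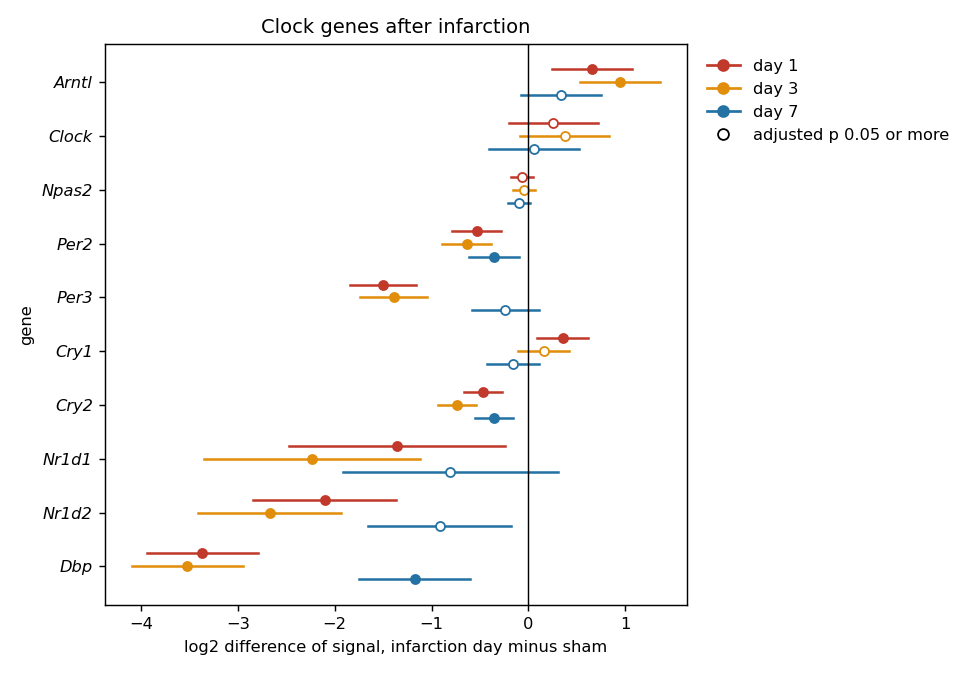
Log2 difference of signal between each infarction day and sham for the 10 clock genes, with 95% confidence intervals from the fit across all 16 arrays (4 per group). Filled points have an adjusted p under 0.05 and open points do not. Dbp lies at -3.37, -3.52 and -1.17 on days 1, 3 and 7, and Arntl at 0.66, 0.95 and 0.34.

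Dbp had the largest differences of the 10. Its log2 signal was 6.53, 6.61, 5.72 and 6.93 on day 1, against 9.95, 10.02, 9.84 and 9.44 in sham. On day 3 it was 5.81, 6.58, 5.91 and 6.86, and on day 7 it was 8.89, 8.40, 8.55 and 8.73. Every array of every infarction day lay below every sham array, with a gap of over 2 log2 units on days 1 and 3. On arrays 13 and 31 the signal was near the background, with 66.6% and 66.9% of the negative control rows below it. The difference from sham was -3.37 on day 1 (SE 0.27, adjusted p = 8.41e-07), -3.52 on day 3 (SE 0.27, adjusted p = 6.82e-07) and -1.17 on day 7 (SE 0.27, adjusted p = 0.00528). Ranked from the lowest of the 18389 differences, Dbp stood 21st on day 1, 14th on day 3 and 231st on day 7. Leaving out any 1 array kept all 3 calls, with values between -3.53 and -3.13 on day 1, -3.71 and -3.36 on day 3, and -1.30 and -1.09 on day 7. From day 3 to day 7 the signal rose again, by 2.35 (SE 0.27, adjusted p = 0.000147).

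Nr1d1 and Nr1d2 encode the REV-ERB receptors. Nr1d2 had a log2 signal of 10.95, 11.28, 9.77 and 10.71 on day 1, against 12.64, 12.78, 12.86 and 12.83 in sham. On day 3 it read 9.02, 10.58, 10.07 and 10.78, and on day 7 it read 11.86, 11.72, 11.96 and 11.93. All 12 infarction arrays lay below the sham arrays, which differed by little among themselves, while days 1 and 3 were spread widely, with arrays 13 and 31 lowest. Nr1d2 was lower by a log2 difference of -2.10 on day 1 (SE 0.34, adjusted p = 0.000303) and -2.67 on day 3 (SE 0.34, adjusted p = 3.32e-05). On day 7 the difference of -0.91 was not called (SE 0.34, adjusted p = 0.0685) although the groups did not overlap. This last p depends on how far the wide spread of the earlier days enters the fit. It was 0.0113 without array 31, 0.0341 without array 13, 0.000331 without both, and 0.000102 in a fit of the day 7 and sham arrays alone.

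Nr1d1 varied most among the sham arrays. It read 6.83, 6.53, 6.51 and 6.86 on day 1, against 9.30, 9.22, 7.13 and 6.52 in sham. On day 3 it was 5.70, 6.03, 5.47 and 6.05, and on day 7 it was 8.09, 7.07, 6.68 and 7.11. Only day 3 lay wholly below sham, and sham array 4 was within the range of day 1. Accordingly the SD in sham was 1.43, against 0.19 on day 1, 0.28 on day 3 and 0.60 on day 7. The difference was -2.23 on day 3 (SE 0.52, adjusted p = 0.00311) and -1.36 on day 1 (SE 0.52, adjusted p = 0.0446), and the value of -0.80 on day 7 was not called (adjusted p = 0.303). The day 1 call was lost in 15 of 25 alternatives, 11 of them with 1 array left out. Without sham array 1 the day 1 value was -0.94 (adjusted p = 0.135), and without sham array 2 it was -0.97 (adjusted p = 0.141). Nr1d1 also overlaps Thra, the thyroid hormone receptor alpha gene, on the opposite strand, and the labels do not say whether the labelling kept strand. The signal of Thra fell as well, by 0.56 on day 1 (adjusted p = 0.000198), by 0.53 on day 3 (adjusted p = 0.000254) and by 0.37 on day 7 (adjusted p = 0.00666), and its part in the value of Nr1d1 was not tested.

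**Figure D2:**
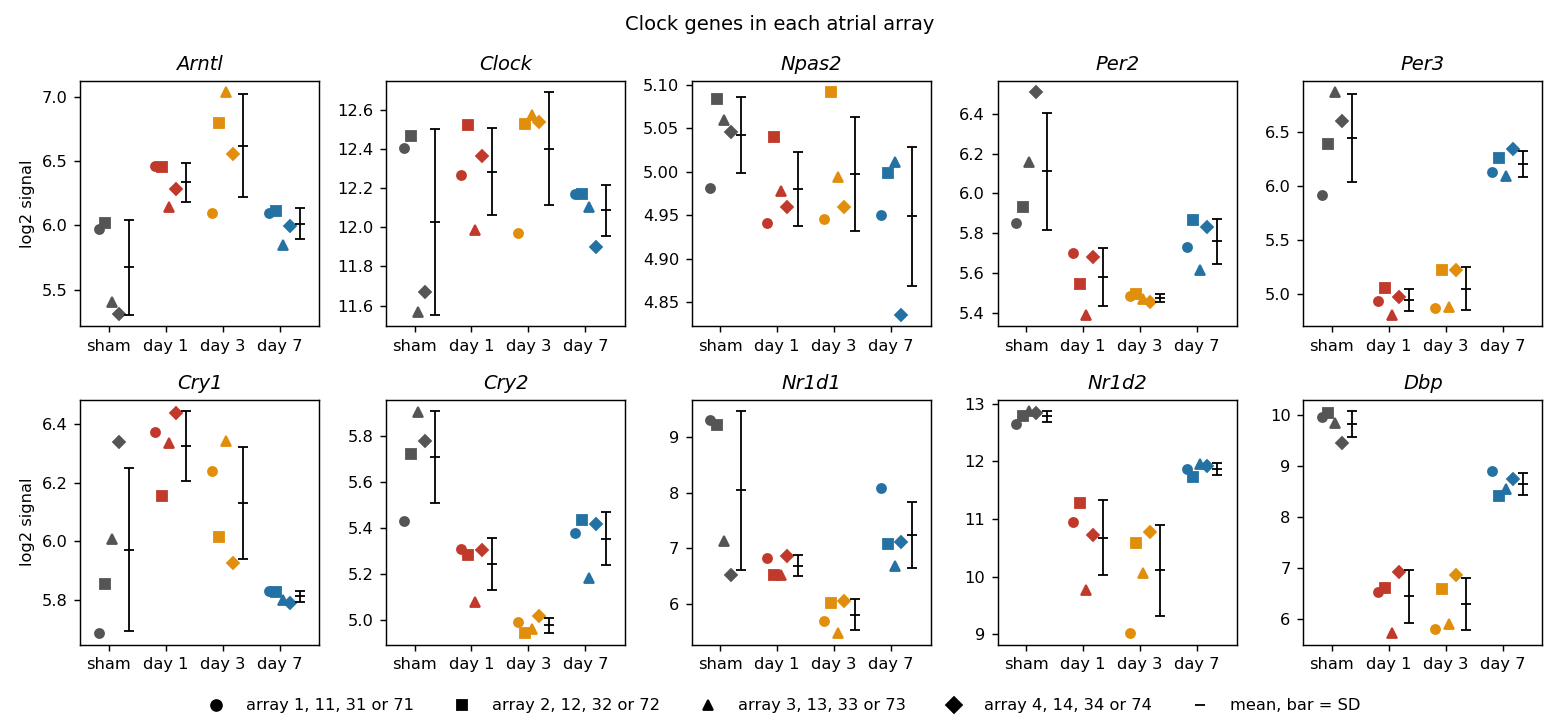
Log2 signal of each of the 10 clock genes on each of the 16 arrays, 1 panel per gene with its own axis, for sham and days 1, 3 and 7. Each point is 1 array, with the same shape for the same last digit of its number, and the bar beside each group is the mean ± SD of 4. Dbp, Nr1d2 and Per3 lie lower on days 1 and 3 with no overlap with sham, and the sham points of Nr1d1 reach from 6.52 to 9.30.

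The PER proteins act in the repressing arm together with the CRY proteins. Per3 had a log2 signal of 4.94, 5.05, 4.81 and 4.97 on day 1, against 5.91, 6.39, 6.87 and 6.60 in sham. It stayed at 4.87, 5.22, 4.88 and 5.23 on day 3, and on day 7 it read 6.12, 6.26, 6.09 and 6.34. Days 1 and 3 lay wholly below sham, and day 7 lay within its range. Per3 fell by 1.50 on day 1 (SE 0.16, adjusted p = 9.75e-06) and by 1.39 on day 3 (SE 0.16, adjusted p = 1.30e-05). Its signal there was near the background, with 48.7% to 64.5% of the negative control rows below it, and on arrays 13 and 31 it did not exceed their median. The day 7 value of -0.24 was not called (adjusted p = 0.326). It was -0.41 and called without sham array 1 (adjusted p = 0.0306).

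Per2 moved the same way over a smaller range. Its values were 5.70, 5.54, 5.39 and 5.68 on day 1, against 5.85, 5.93, 6.16 and 6.51 in sham. On day 3 they were 5.48, 5.49, 5.47 and 5.45, and on day 7 they were 5.73, 5.87, 5.62 and 5.83. Days 1 and 3 did not overlap sham, and day 7 overlapped it by 1 array on each side. The signal of Per2 was near the background on days 1 and 3. There 60.6% to 70.8% and 61.2% to 70.4% of the negative control rows lay below it, against 78.1% to 85.6% in sham. Per2 fell by 0.53 on day 1 (SE 0.12, adjusted p = 0.00268), by 0.64 on day 3 (SE 0.12, adjusted p = 0.000667) and by 0.35 on day 7 (SE 0.12, adjusted p = 0.0442). The day 7 call was lost in 16 of 25 alternatives, 12 of them with 1 array left out, and the value was -0.22 without sham array 4 (adjusted p = 0.117).

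The log2 signals of the 2 cryptochrome genes, whose proteins block CLOCK and BMAL1 together with PER, went in different directions on day 1. Cry2 read 5.31, 5.28, 5.08 and 5.31 on day 1, against 5.43, 5.72, 5.91 and 5.78 in sham. It was 4.99, 4.94, 4.96 and 5.02 on day 3, and 5.38, 5.43, 5.18 and 5.42 on day 7. Days 1 and 3 lay below sham, and on day 7 only sham array 1 came within the range. Cry2 fell by 0.47 on day 1 (SE 0.092, adjusted p = 0.00116), by 0.73 on day 3 (SE 0.092, adjusted p = 2.56e-05) and by 0.36 on day 7 (SE 0.092, adjusted p = 0.0109). On days 1 and 3 the signal of Cry2 was near the background, with 51.4% to 63.7% of the negative control rows below it, against 71.8% to 78.4% in sham.

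Cry1 read 6.37, 6.16, 6.33 and 6.44 on day 1, against 5.69, 5.85, 6.01 and 6.34 in sham. On day 3 its values were 6.24, 6.02, 6.34 and 5.93, and on day 7 they were 5.83, 5.83, 5.80 and 5.79. Sham array 4 lay inside the day 1 range, so that the groups overlapped. The share of negative control rows below Cry1 on day 1, 75.9% to 81.4%, lay within that of sham, 75.6% to 83.5%. The median of those rows was 4.69 to 4.87 on day 1, against 4.47 to 4.53 in sham. The difference was 0.35 on day 1 (SE 0.12, adjusted p = 0.0311), 0.16 on day 3 (adjusted p = 0.312) and -0.16 on day 7 (adjusted p = 0.409). The day 1 call of Cry1 was lost in 9 of 25 alternatives. It went under quantile normalisation (0.16, adjusted p = 0.318), with each array centred on its median (0.20, adjusted p = 0.281), in a fit of those groups alone (0.35, adjusted p = 0.0538), and without array 11, 13 or 14 or sham array 1, 2 or 3, where the value ranged from 0.26 to 0.37.

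Of the activators, Arntl was the gene that rose. Its log2 signal was 6.46, 6.45, 6.14 and 6.28 on day 1, against 5.97, 6.02, 5.40 and 5.31 in sham. On day 3 it was 6.10, 6.79, 7.04 and 6.56, and on day 7 it was 6.09, 6.11, 5.85 and 6.00. In log2 signal all arrays of days 1 and 3 lay above all sham arrays, and day 7 overlapped sham. The share of negative control rows below Arntl did overlap sham on days 1 and 3. It was 73.2% to 82.0% on day 1, 71.4% to 90.7% on day 3 and 67.6% to 80.4% in sham. Those rows had a median of 4.69 to 4.87 on day 1 and 4.52 to 4.93 on day 3, against 4.47 to 4.53 in sham. Arntl was higher by 0.66 on day 1 (SE 0.19, adjusted p = 0.0134) and by 0.95 on day 3 (SE 0.19, adjusted p = 0.00123), and the value of 0.34 on day 7 was not called (adjusted p = 0.235). The day 1 call did not hold under 2 other scalings, with 0.45 after quantile normalisation (adjusted p = 0.118) and 0.50 with arrays centred on their median (adjusted p = 0.109). These scalings moved the median difference of all genes on day 1 to -0.15 and -0.09, from 0.06 as deposited.

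Clock, the partner of BMAL1, was not called apart from sham on any day. It read 12.27, 12.52, 11.99 and 12.36 on day 1, against 12.40, 12.47, 11.57 and 11.67 in sham. On day 3 it was 11.97, 12.53, 12.57 and 12.54, and on day 7 it was 12.17, 12.17, 12.11 and 11.90. The groups overlapped on every day, with differences of 0.26, 0.37 and 0.06 (95% confidence intervals -0.20 to 0.72, -0.09 to 0.84 and -0.40 to 0.52). The day 1 and day 3 values turned to -0.25 and -0.08 under quantile normalisation, and the day 3 value was 0.52 and called (adjusted p = 0.0425) without arrays 13 and 31.

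Npas2, which can take the place of CLOCK, lay near the background on all arrays. Its values were 4.94 to 5.04 on day 1, 4.95 to 5.09 on day 3 and 4.84 to 5.01 on day 7, against 4.98 to 5.08 in sham. Between 50.3% and 64.5% of the negative control rows of the same array lay below it.

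**Figure D3:**
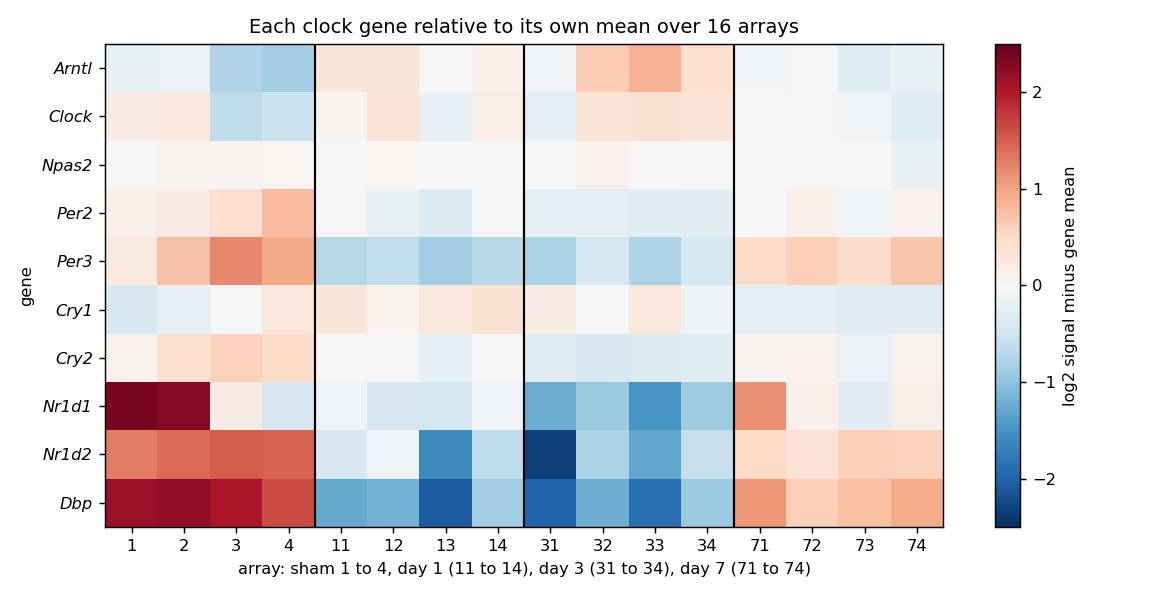
Signal of each clock gene (rows) on each array (columns), as the log2 difference from that gene's mean over all 16 arrays. Columns run from sham through days 1, 3 and 7, red is above the mean and blue below. Days 1 and 3 are blue for Dbp, Nr1d2 and Per3, where day 7 and sham are red, and sham arrays 1 and 2 differ from 3 and 4 for Nr1d1.

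The order of the group means shows where neighbours can be separated. From high to low, it ran sham, day 7, day 1, day 3 for Dbp, and only day 1 and day 3 did not differ beyond their spread. For Nr1d2 the order was the same, and of neighbouring groups only day 7 and day 1 were called apart (1.19, adjusted p = 0.0221). That step was lost without array 13 (0.89, adjusted p = 0.0711) and without array 74 (1.17, adjusted p = 0.0503). For Per3 the order was sham, day 7, day 3, day 1, and the only separable neighbours were day 7 and day 3. The order for Cry2 and Per2 was sham, day 7, day 1, day 3, with sham and day 7 apart in both. For Arntl it was day 3, day 1, day 7, sham, with no neighbours apart, and for Cry1, Nr1d1, Clock and Npas2 no neighbouring groups were apart either.

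From day 3 to day 7, 4 of the 10 rose and none fell, against 12.7% of all genes called and 4.07% called higher, and the groups did not overlap in 7 of the 10, as for 21.9% of all genes. They were Dbp by 2.35, Nr1d2 by 1.76 (SE 0.34, adjusted p = 0.00481), Per3 by 1.15 (SE 0.16, adjusted p = 0.000529) and Cry2 by 0.38 (SE 0.092, adjusted p = 0.0156). Nr1d1 differed by 1.43 in the same direction without a call (adjusted p = 0.0871), although its day 7 arrays lay above all day 3 arrays, and so did Per2 by 0.29 (adjusted p = 0.132). Arntl differed by -0.61 (adjusted p = 0.0535), and without array 31 it was called at -0.78 (adjusted p = 0.00629).

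From day 1 to day 7, 3 genes rose and 1 fell, against 26.4% of all genes called, 13.7% higher and 12.7% lower, and the groups did not overlap in 5, as for 41.7% of all genes. Dbp rose by 2.20 (SE 0.27, adjusted p = 5.27e-05), Per3 by 1.26 (SE 0.16, adjusted p = 7.56e-05) and Nr1d2 by 1.19, while Cry1 fell by 0.51 (SE 0.12, adjusted p = 0.00793), a call that was lost with arrays centred on their median (-0.33, adjusted p = 0.103). From day 1 to day 3 limma called 0 of the 10, against 8.12% of all genes, and the groups did not overlap in 2, as for 10.4% of all genes. Cry2 differed by -0.27 without a call (adjusted p = 0.0971). Without array 31, where 35.5% of all genes were called, it was called at -0.27 (adjusted p = 0.0489), as was Arntl at 0.46 (adjusted p = 0.0493), and without sham array 1 Cry2 was called at -0.27 (adjusted p = 0.0387). These comparisons and those with sham share arrays and are not independent of each other.

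The sham arrays were not alike in most of the clock genes, paired here after their values were seen. Arrays 1 and 2 had the higher values of Nr1d1 (9.30 and 9.22, beside 7.13 and 6.52 on arrays 3 and 4), of Clock (12.40 and 12.47, beside 11.57 and 11.67) and of Arntl (5.97 and 6.02, beside 5.40 and 5.31). They had the lower values of Per2 (5.85 and 5.93, beside 6.16 and 6.51), Per3 (5.91 and 6.39, beside 6.87 and 6.60) and Cry1 (5.69 and 5.85, beside 6.01 and 6.34). In Dbp they were higher (9.95 and 10.02, beside 9.84 and 9.44) and in Nr1d2 lower (12.64 and 12.78, beside 12.86 and 12.83), by less than the distance to days 1 and 3. Cry2 was lower on them as well (5.43 and 5.72, beside 5.91 and 5.78), and Npas2 did not separate the pairs (4.98 and 5.08, beside 5.06 and 5.05). Outside the 10 genes, Pdk4 separated them (18.35 and 18.47, beside 16.19 and 16.81) and Tcap did not (14.92 and 15.04, beside 15.28 and 14.80). The share of all genes that do so was not examined. The labels give all 4 sham arrays as 1 group and name nothing that separates them, and whether the hour of collection differed among them was not tested.

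The promoters of the genes were searched for the elements that join the loop together. Of the 10 genes, 9 had at least 1 promoter in the RefSeq table of build GRCm38.p6, 12 in all, and Per2 had none there. Each is 300 bases long around the start of transcription. Searched on both strands were the E-box CACGTG and its variant CACGTT, bound by BMAL1 and its partners, the D-boxes TTATGTAA and TTACGTAA, bound by DBP, the elements TAGGTCA and TGGGTCA, bound by ROR and REV-ERB receptors, and the cyclic AMP element TGACGTCA. Among the 32851 promoters of the table, 7.15% held the E-box, 4.68% the variant, 1.06% a D-box, 6.45% a ROR element and 1.79% the cyclic AMP element.

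The stretches below show the matches found in the genes that moved, so that the elements can be seen beside the values, with each match in capitals and each stretch written along the strand of its gene. Per3, which fell with Dbp, holds a pair of D-boxes that begin 205 and 158 bases before its start (chr4:151044786-151044900, minus strand). Cry1 holds an E-box 60 bases and the variant 79 bases before the start (chr10:85185079-85185163, minus strand). Cry2 holds the variant 166 bases before the start (chr2:92434200-92434265, minus strand), and Nr1d1 holds it 28 bases before (chr11:98775378-98775435, minus strand). There the variant reads AACGTG because it lies on the other strand. Arntl holds a ROR element that begins at base 31 of its second listed start (chr7:113207530-113207559, plus strand).
Per3: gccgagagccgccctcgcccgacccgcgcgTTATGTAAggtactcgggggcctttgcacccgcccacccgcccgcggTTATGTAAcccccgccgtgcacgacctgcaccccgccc
Cry1: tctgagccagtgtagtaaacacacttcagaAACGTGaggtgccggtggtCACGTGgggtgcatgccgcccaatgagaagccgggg
Cry2: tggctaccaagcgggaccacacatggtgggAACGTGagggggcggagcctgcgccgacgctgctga
Nr1d1: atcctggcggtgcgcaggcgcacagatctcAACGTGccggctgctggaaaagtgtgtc
Arntl: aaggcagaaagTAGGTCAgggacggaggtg

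None of the searched elements was found in the windows of Clock, Npas2, Nr1d2 and Dbp or at the first listed start of Arntl. A match is a description of the letters and was not tied to any difference measured here.

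The remaining genes of the loop were taken from a list of 24, of which 21 had a row naming them alone and 18 were tested. On day 1 limma called 7 of the 18 lower and 1 higher, on day 3 it called 8 lower and 2 higher, and on day 7 it called 7 lower and 1 higher. That is 44.4%, 55.6% and 44.4% of the 18, where 47.2%, 43.8% and 24.9% of all genes were called, so that the day 1 share, both directions together, was near that of all genes. By direction, 22.2%, 20.2% and 9.94% of all genes were called lower on days 1, 3 and 7, and 24.9%, 23.5% and 14.9% higher. Of the 2 called higher on day 3, Timeless was not above the negative control median in either group. The median log2 difference of the 18 was -0.04, -0.31 and -0.02 on days 1, 3 and 7, near 0 on days 1 and 7. The other 2 members of the family of Dbp, which act on the same D-boxes, were among those that fell. Tef read 5.43, 5.54, 5.33 and 5.37 on day 1, against 6.59, 6.78, 7.31 and 7.13 in sham. It was 5.16, 5.39, 5.22 and 5.44 on day 3 and 6.14, 5.98, 5.99 and 6.07 on day 7, and no infarction array overlapped sham. Tef was lower by a log2 difference of -1.53, -1.65 and -0.91 (SE 0.13 each, adjusted p = 1.24e-06, 7.37e-07 and 0.000181). Its signal was near the background on days 1 and 3. There 59.4% to 68.2% and 54.9% to 68.4% of the negative control rows lay below it, against 86.5% to 92.1% in sham. Hlf was not above the median negative control on any array of days 1 and 3, so that its fall there is a bound of at least 1.02 on day 1 and at least 1.11 on day 3. The limma fit of the deposited values gave adjusted p = 2.61e-07 and 3.72e-07 on these days, and the bounds themselves were not tested. On day 7 Hlf was lower by -0.75 (adjusted p = 4.64e-05).

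Usp2, a protease that removes ubiquitin from clock proteins, read 7.54, 7.90, 6.47 and 7.41 on day 1, against 8.94, 9.48, 9.58 and 9.57 in sham. Its differences were -2.06, -2.41 and -1.52 on days 1, 3 and 7 (SE 0.31 each, adjusted p = 0.000138, 2.91e-05 and 0.00234). Rora, the receptor that activates Arntl through the element that REV-ERB also binds, fell by 1.36 on day 1 (adjusted p = 0.00891) and by 1.30 on day 3 (adjusted p = 0.0108), and on day 7 it differed by -0.02 (adjusted p = 0.984). Csnk1d, a kinase that marks PER proteins for breakdown, rose by 0.55, 0.43 and 0.47 on the 3 days (adjusted p = 0.000315, 0.00166 and 0.00184). Its day 1 and day 3 calls were lost under quantile normalisation (0.31 and 0.25), and the day 3 call also with centring (0.34, adjusted p = 0.0994). Csnk2a1, a kinase subunit, fell by 0.55, 0.58 and 0.44 (adjusted p = 0.00319, 0.00211 and 0.0190), and its day 7 call was lost without array 72 (-0.42), array 74 (-0.39) or sham array 2 (-0.43). That call was also lost under quantile normalisation (-0.53, adjusted p = 0.109) and with arrays centred on their median (-0.42, adjusted p = 0.216). Per1, the third Per gene, was not called, with differences of -0.03, -0.42 and -0.20 (adjusted p = 0.897, 0.0669 and 0.481).

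Smaller falls came at different times. Bhlhe41, an E-box repressor, fell by 0.51 on day 1 (adjusted p = 0.0207), which was -0.39 without array 13 and -0.41 without sham array 2, neither of them called. Btrc, part of a ubiquitin ligase, fell by 0.25 on day 1 (adjusted p = 0.0324), a call lost in 7 of 25 alternatives, among them without array 13 or 14 or sham array 3 or 4. Cipc, an inhibitor of CLOCK, fell by 0.35 on day 3 (adjusted p = 0.00306) and by 0.45 on day 7 (adjusted p = 0.00113), the day 7 call being lost with arrays centred on their median (-0.42, adjusted p = 0.0726). Noct, whose RNA cycles with the clock, fell by 0.26 and 0.51 on days 3 and 7 (adjusted p = 0.0130 and 0.000340), with the day 3 call lost when only those groups were fitted (adjusted p = 0.0771). Noct was near the background on days 3 and 7. There 56.7% to 67.1% and 60.7% to 63.8% of the negative control rows lay below it, against 69.9% to 76.4% in sham. Sirt1, a deacetylase that acts on clock proteins, fell by 0.41 and 0.23 on those days (adjusted p = 0.000377 and 0.0284), and the day 7 call was lost in 8 of 25 alternatives, among them without any 1 of the day 7 arrays or without sham array 4 (-0.18, adjusted p = 0.0940). Timeless passed the threshold on day 3, but neither group was above the negative control median, so that no size can be given. Arntl2, a relative of Arntl, was not called against sham and did not exceed the negative control median on any day 1 array or on 3 of the 4 day 3 arrays.

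**Figure D4:**
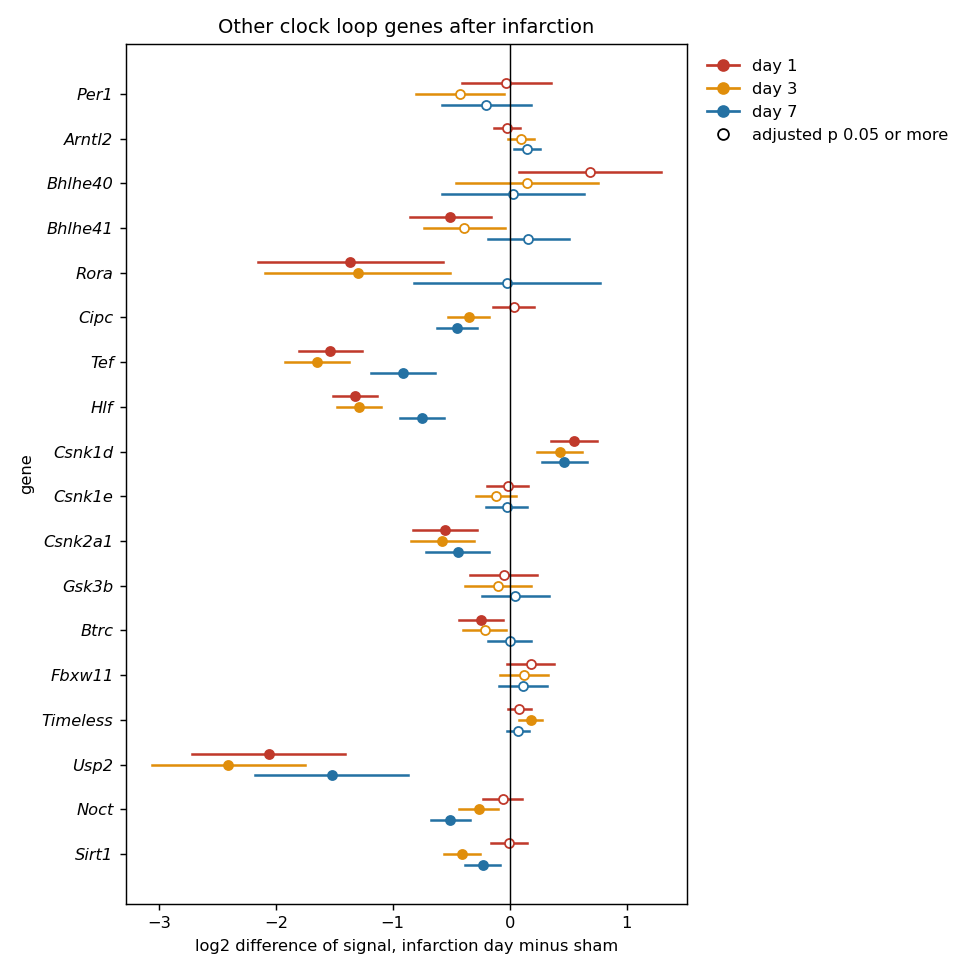
Log2 difference of signal between each infarction day and sham for the 18 further genes of the clock loop that were tested, with 95% confidence intervals (4 arrays per group) and filled points for an adjusted p under 0.05. Usp2, Tef and Hlf lie to the left on all 3 days and Csnk1d to the right. The fitted points of Hlf on days 1 and 3, of Arntl2 on day 1 and of Timeless on all days rest on signal no higher than the median negative control.

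Genes whose rhythm in heart muscle is set by the clock were taken from a list of 18, of which 14 had a row and were tested. Limma called 8 lower and 2 higher on day 1, 8 lower and 0 higher on day 3, and 6 lower and 0 higher on day 7. Over all genes 22.2%, 20.2% and 9.94% were called lower on these days and 24.9%, 23.5% and 14.9% higher. The median log2 difference of the 14 was -0.86, -1.11 and -0.67. The 4 with the largest called difference on any 1 day were Tcap, a protein of the Z-disc, Dgat2, an enzyme of triglyceride synthesis, Klf9, a transcription factor, and Kcnip2, a subunit of potassium channels. Tcap was at -3.46, -4.20 and -1.75 on days 1, 3 and 7 (adjusted p = 0.000269, 4.24e-05 and 0.0335). Dgat2 was at -3.34, -3.60 and -2.03 (adjusted p = 0.00135, 0.000644 and 0.0391). Kcnip2 was at -2.64, -2.38 and -1.68 (adjusted p = 4.16e-05, 7.31e-05 and 0.00233), and Klf9 at -1.96, -2.84 and -1.38 (adjusted p = 0.0122, 0.00101 and 0.0921). The genes called higher on day 1, named here after their values were seen, were Cdkn1a, an inhibitor of the cell cycle, at 1.47 (adjusted p = 0.000773) and Fkbp5, a co-chaperone of the glucocorticoid receptor, at 0.63 (adjusted p = 0.0150). The call of Fkbp5 was lost after quantile normalisation (0.42, adjusted p = 0.121) and centring (0.47, adjusted p = 0.119). The day 7 call of Tcap was lost when any 1 array of day 7 or sham was left out (adjusted p up to 0.0821), and that of Dgat2 when any of these or array 14 was (adjusted p up to 0.100). Without sham array 4 the day 7 count was 3.

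The signals of cell type markers changed over the same days. Fewer cells of a type and less RNA per cell cannot be told apart in these samples. Neutrophil markers, 10 of 10 measured, had a mean log2 signal of 10.32 to 11.67 across the day 1 arrays, 6.64 to 10.57 on day 3 and 4.99 to 5.33 on day 7, against 4.62 to 4.88 in sham, and 10, 10 and 0 of them were called higher. In sham 4 of them, Retnlg, Mmp8, Il1r2 and Slfn4, were not above the negative control median on any array. Monocyte and macrophage markers lay at 11.45 to 12.04, 11.55 to 12.55 and 10.56 to 11.91, against 8.08 to 8.39 in sham, and 8, 9 and 8 of 10 were called higher. Cardiomyocyte markers, 9 of 10 measured, lay at 14.49 to 15.44, 13.22 to 15.72 and 15.43 to 16.02, against 16.25 to 16.50 in sham, and 3, 5 and 0 of the 9 were called lower. Fibroblast markers, 9 of 10 measured, were at 8.65 to 9.54, 9.45 to 11.13 and 12.24 to 12.64, against 9.78 to 10.06 in sham. Limma called 6, 2 and 0 of these 9 lower and 0, 2 and 7 higher. Over all genes 22.2%, 20.2% and 9.94% were called lower on days 1, 3 and 7, and 24.9%, 23.5% and 14.9% higher.

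Endothelial markers, 9 of 10 measured, stayed closer to sham at 9.88 to 10.40, 9.97 to 10.97 and 10.81 to 11.18, against 10.42 to 10.57. Markers of dividing cells, 9 of 10 measured, were at 4.68 to 4.77, 5.90 to 7.46 and 6.23 to 6.42, against 4.45 to 4.59. Genes typical of ventricular muscle, 6 of 6 measured, lay at 9.59 to 10.57, 9.71 to 10.41 and 10.39 to 10.68, against 10.80 to 11.00. The part of these cell types in the differences of the clock genes was not tested.

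Markers of atrial muscle were present. Nppa, which encodes the atrial natriuretic peptide, stood at the ceiling of the signal on all sham arrays, which differed in it by 0.0025. Myl7, the atrial light chain, averaged 14.87 ± 2.03 on day 1, 14.48 ± 2.86 on day 3 and 15.83 ± 0.99 on day 7, against 17.97 ± 0.28 in sham (SD, n = 4 each). Sln, the atrial sarcolipin gene, averaged 12.88 ± 1.96, 14.46 ± 3.30 and 16.30 ± 0.93, against 17.97 ± 0.19 in sham. Myl4, the other atrial light chain, averaged 6.65 ± 0.73, 6.72 ± 0.62 and 6.78 ± 0.26, against 7.02 ± 0.12 in sham. Myl7 and Sln averaged highest in sham, as Dbp did, and their part in its differences was not tested.

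Arrays 13 and 31 stood apart. How well the positive control rows separated from the negative ones, as an area under the receiver operating curve with 1 for complete separation, was 0.755 on array 13 and 0.743 on array 31, against 0.793 to 0.825 on the other 14 arrays. Array 31 had the lowest cardiomyocyte signal and the highest neutrophil signal of day 3, and array 13 had the highest neutrophil signal of all. Without both arrays, the calls among the 10 genes were 5 lower and 2 higher on day 1, 6 lower and 2 higher on day 3, and 4 lower and 0 higher on day 7, where 57.7%, 49.2% and 40.7% of all genes were called.

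The genes most like Arntl and Dbp were found by the root mean square of the difference between gene-centred signals over the 16 arrays, among 18387 genes. Arntl varied by 0.43 about its own mean, and the closest genes were Tmem183a (0.186), Rpn1 (0.188), Rpl13-ps3 (0.188), Ppp4c (0.194) and Nup50 (0.195). Dbp varied by 1.53, and the closest were Dhrs7c (0.520), Podn (0.569), Nr1d2 (0.578), Mapk10 (0.594) and Smco1 (0.595). Nr1d2 was thus the one clock gene among the 5 nearest to Dbp, and no clock gene was among the 5 nearest to Arntl. Dhrs7c, which encodes a dehydrogenase of striated muscle, averaged 7.04 on day 1, 7.21 on day 3 and 8.80 on day 7, against 10.22 in sham.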

How the data were processed

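RNA of 16 atrial samples was measured, 4 arrays per group. The authors deposited 1 table of log2 signals with 72688 rows. Per the submitters' processing notes, Affymetrix Expression Console was used. The sources used here do not give the background correction, summarisation or scaling, and the labels name an array design that the row names do not match. The log2 values were used as deposited. Of the rows, 6732 were controls and 30604 named 1 gene, 2146 several. Symbols were updated in 1121 rows through RefSeq names (GRCm38.p6), and the row with the highest mean was kept for 430 genes with several.

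All 16 arrays entered 1 limma fit (version 3.58.1, R 4.3.3, lmFit and eBayes with a variance trend), with a mean for each group, checked on simulated data. Benjamini-Hochberg adjustment was made within each of 6 comparisons. SEs and confidence intervals come from that fit. A gene at or below the median negative control on every array of a group was given a bound. The labels do not say that each array is a separate mouse, so p-values measure the spread between these samples. The number of arrays limits precision.

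The members and lists were chosen with earlier results of these data known. All members are named, as are further loop genes called against sham, the 4 output genes with the largest called differences, and the 5 genes most like Arntl and Dbp. Per1, Thra, Arntl2, Timeless, Kcnh2, Cdkn1a, Fkbp5 and the atrial markers were added for context. Alternatives were other scalings, filters, array weights, a fit without a variance trend, the mean of a gene's rows, only the groups compared, and leaving out arrays.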

Additional observations from a re-analysis of the deposited data

Results flagged for a closer look

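Single arrays stood far from the others of their group in 12 of the 112 sets of 4 arrays examined, which covered the 10 clock genes and 18 further named genes. Chance alone flags about 1 in 20 such sets. Among the clock genes they were Clock on array 31, at 11.97 where the other day 3 arrays lay between 12.53 and 12.57, and Cry2 on array 13, at 5.08 where the other day 1 arrays lay between 5.28 and 5.31. Array 31 was also low in Bhlhe41 (6.66), Tcap (8.63), Dgat2 (8.71), Kcnip2 (6.01) and Kcnh2 (4.85), and array 13 in Bhlhe41 (6.60). Sham array 1 was low in Csnk1d (7.93) and Usp2 (8.94), and sham array 4 was high in Sirt1 (7.71) and Fkbp5 (6.70). Arrays 13 and 31 had the least separation of positive from negative controls, and its part in these values was not tested.

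The gap to sham differed between days, by limma's test of the days against each other, in 5 clock genes. From day 3 to day 7, where 12.7% of all genes were called, it differed by 2.35 for Dbp, 1.76 for Nr1d2, 1.15 for Per3 and 0.38 for Cry2. From day 1 to day 7, where 26.4% of all genes were called, it differed by 2.20 for Dbp, 1.19 for Nr1d2, 1.26 for Per3 and -0.51 for Cry1. This call of Cry1 was lost with arrays centred on their median, and that of Nr1d2 without array 13 or array 74.

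The same test was passed by further genes of the loop. From day 3 to day 7 the differences were 1.28 for Rora, 0.74 for Tef, 0.55 for Bhlhe41 and at least 0.36 for Hlf. From day 1 to day 7 they were 1.34 for Rora, 0.62 for Tef, 0.67 for Bhlhe41, at least 0.28 for Hlf, -0.48 for Cipc, -0.45 for Noct and -0.23 for Sirt1. Arntl2 passed there too (adjusted p = 0.0279), but its day 1 signal was not above the negative controls and its day 7 mean was below the day 1 floor, so that it has no size. From day 1 to day 3 they were -0.38 for Cipc and -0.41 for Sirt1. Of the output genes, Tcap differed by 2.45 from day 3 to day 7 and by 1.70 from day 1 to day 7, Kcnip2 by 0.96 from day 1 to day 7, and Kcnh2, the gene of a potassium channel, by 0.47 from day 3 to day 7 and by 0.51 from day 1 to day 7. Cdkn1a differed by -1.03 from day 1 to day 3 and by -1.79 from day 1 to day 7, and Fkbp5 by -0.84 and -0.91 over the same days.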

How the results depend on the processing

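No paired analysis was possible because the groups share no replicate numbers in the labels. Of 60 differences (10 clock genes in 6 comparisons), 26 were called, and 19 of these kept their direction and call in all 25 alternatives. Calls were lost in at least 1 alternative for Arntl, Cry1 and Nr1d1 on day 1, for Per2 and Cry2 on day 7, and between days 7 and 1 for Cry1 and Nr1d2. Cry2 on day 7 was lost with arrays centred on their median alone (-0.33, adjusted p = 0.133). No called difference changed sign.

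With 1 array left out, the number of clock genes called ranged from 6 to 8 on day 1 (8 with all arrays), 7 to 7 on day 3, 2 to 4 on day 7 (3), 0 to 2 between days 3 and 1 (0), 4 to 7 between days 7 and 3 (4) and 3 to 4 between days 7 and 1 (4). In the same fits 35.1% to 62.5% of all genes were called on day 1, 38.4% to 45.2% on day 3 and 18.1% to 35.5% on day 7. The share was 4.4% to 35.5% between days 3 and 1, 7.92% to 15.7% between days 7 and 3. Between days 7 and 1 it was 18% to 50.2%. With arrays centred on their median 1 gene was called on day 7 (14.1% of all genes). Between days 3 and 1, array weights gave 1 call (40.4% of all genes called), a fit of those groups alone 1 (1.38%), and leaving out arrays 13 and 31 gave 2 (31.5%), against 8.12% with all arrays. Between days 7 and 3, array weights gave 7 calls (28.0% of all genes, against 12.7%). Without sham array 4 there were also 7 calls between those days (11.4% of all genes), with Arntl (-0.61), Nr1d1 (1.43) and Per2 (0.29) added. The cause was not tested. Centring also lowered the day 7 counts of the further loop genes to 5, from 8, and of the output genes to 3, from 6. On day 1 the split of all genes was 2612 higher and 6021 lower after quantile normalisation and 3124 and 4392 after centring, against 4587 and 4085 as deposited. The clock genes were then 0 higher and 6 lower under both.

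The values that changed sign belong to differences that were not called. Under quantile normalisation Clock was at -0.25 on day 1 and -0.077 on day 3 against sham, 0.091 between days 7 and 3 and 0.26 between days 7 and 1, and Cry1 was at -0.00097 on day 3 against sham. Npas2 was at 0.079 and 0.14 between day 7 and days 3 and 1 under quantile normalisation, and at 0.067 and 0.15 with centring. With 1 array left out, Clock on day 7 ranged from -0.095 to 0.21, Npas2 from -0.014 to 0.038 between days 3 and 1 and from -0.052 to 0.0068 between days 7 and 1, and Dbp from -0.39 to 0.0078 between days 3 and 1.

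Signal close to background limits Npas2 on all arrays, and Per2, Per3, Tef and Kcnh2 on days 1 and 3. It also limits Cry2, Hlf and Noct on all infarction days, Nr1d1 on array 31 and Dbp on arrays 13 and 31. Arntl2 and Timeless are limited as well.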
